A study of Homo sapiens with 105 samples.

Results

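The response to TGF-beta was examined in HGrC1 cells that carry an empty vector, abbreviated EV. HGrC1 is an established line of human granulosa cells, the ovarian cells that surround the oocyte. The EV cells are the control of a study of FOXL2, a forkhead transcription factor of granulosa cells. They were sequenced as 3 RNA libraries without TGF-beta and 3 stimulated with it, 6 of 105 samples in the series and of 27 RNA samples. The groups set beside them are HGrC1 cells transduced with FOXL2 C134W, the missense change of adult granulosa cell tumors, and with wild-type FOXL2 (WT), each as 3 libraries without and 3 with TGF-beta. KGN, a granulosa tumor line heterozygous for C134W, has 4 labelled libraries without and 5 with TGF-beta. Every one of these groups was grown in Ham medium with fetal calf serum. The labels and notes read here leave out the isoform, dose and time of TGF-beta, the promoter of the vector and whether each line is 1 clone or a pool. They do not say either whether replicate libraries are separate cultures, so errors measure only the spread between these libraries, which may be technical.

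No deposited table sets EV cells with TGF-beta against EV cells without it. Each EV group stands in a table against the C134W cells of its own condition, with a mean of normalized reads over both groups and a log2 fold change. The EV level of each gene was worked out from that pair of values. The genes described are the 9436 of 26330 (35.84%) whose mean was at least 100 normalized reads in both tables. The response is the log2 of the EV level with TGF-beta over that without, less the median over these genes, and levels with TGF-beta are printed on the scale of the untreated EV cells. Because the tables were normalized separately, levels set across them carry no test. A gene is called higher or lower where the response is at least 1 on the log2 scale in size, which is 2-fold. Each "±" of a response is an approximate standard error, and no value per library could be printed because the tables hold none. At the edge of the selection, SPTY2D1-AS1, GPRIN1 and SPRYD4 lay just inside with responses of -0.12, 0.14 and -0.45, and KLHL25, DDX60 and HMOX1 lay just outside with 0.26, 0.82 and 0.52. In bulk RNA, a change in the share of cells that express a gene and a change in the RNA of each cell cannot be told apart.

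TGF-beta binds a pair of serine/threonine kinase receptors on the cell surface, which phosphorylate SMAD2 and SMAD3. These join SMAD4, enter the nucleus and bind DNA with partner factors, and among their best known targets are matrix genes, the inhibitor SMAD7 and other genes that damp the signal. Bone morphogenetic proteins, of the same ligand family, act through SMAD1, SMAD5 and SMAD9 on targets that include the ID genes. In the ovary, ligands of the family govern growth of the follicle, matrix deposition and the differentiation of granulosa cells.

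Depth, estimated from genes with a single read, was about 6320000 to 11130000 assigned reads per EV library without TGF-beta and 9070000 to 15780000 with it. FOXL2 (chromosome 3), the gene that the other lines carry, had an EV level of 9.33 normalized reads without and 8.38 with TGF-beta. It entered the selection through the C134W cells of the same tables, whose means over both groups were 673 without and 489 with TGF-beta. Most markers did not bear out the granulosa label: 7 of 8 were under 20 normalized reads in untreated EV cells. FSHR, AMHR2, NR5A1 and the aromatase gene CYP19A1 were at 1.77 or less, and only GATA4, at 1731, was well expressed. Markers of endothelial cells summed to 17.1 without and 5.69 with TGF-beta, and those of immune cells to 59.1 and 22.2, nearly all from CD14. The keratins KRT8 and KRT18 stood at 23797 and 14528 in untreated EV cells, and the stromal gene NR2F2 at 2668. Epithelial markers summed to 43841 without and 46231 with TGF-beta and theca and stroma markers to 3256 and 3661, and their part in the results was not tested.

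TGF-beta was followed by a response that was narrow in number and large in size at its upper end. Of the 9436 genes, 219 were called higher (2.32%) and 107 lower (1.13%). Scaled by the sum of all levels in place of the median gene, these counts were 183 and 145. Most genes, 7989 or 84.67%, lay within 0.5 of the median gene. The median standard error was 0.10 and its 95th percentile 0.17. For all 326 genes called the approximate 95% interval left out 0. With such errors the size rule nearly fixes that outcome, so it adds no support to the calls. The approximate 95% interval lay wholly past the 2-fold line for 138 of the higher and 58 of the lower genes. A response of at least 2 on the log2 scale was reached by 43 genes upward and 8 downward.

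The gene with the largest response was TGFBI (GRCh38.p14 chromosome 5, 136028988 to 136063818), which encodes a secreted matrix protein named for its induction by TGF-beta. Its level was 814 normalized reads without and 25691 with TGF-beta, a response of 4.98 ± 0.07 or 31.6-fold. Next came GPR56, now ADGRG1 (chromosome 16, 57619738 to 57665567), an adhesion G protein-coupled receptor, at 96.8 without and 1811 with TGF-beta, a response of 4.23 ± 0.14. RGS4, a regulator of G protein signaling, went from 26.4 to 419, a response of 3.99 ± 0.20. Of the 3, TGFBI was already well expressed without TGF-beta, and the others were under 100 normalized reads. GPR56 and RGS4 thus met the minimum without TGF-beta through the C134W cells.

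Others among the 15 highest were signaling and transcription genes. PDGFB, the B chain of platelet-derived growth factor, was at 35.2 without and 522 with TGF-beta, a response of 3.89 ± 0.19. DDIT4, a stress-induced inhibitor of the growth kinase complex mTORC1, went from 173.5 to 1988, a response of 3.52 ± 0.12. JUNB (chromosome 19, 12791486 to 12793315), an AP-1 subunit, went from 162 to 1769, a response of 3.44 ± 0.18. BHLHE40, a transcriptional repressor, was 2.92 ± 0.09 higher. The rest of the 15 were ASS1, which makes the precursor of arginine, at 3.48 ± 0.09, the transglutaminase gene TGM2, SERPINE2, LTBP2, COL16A1, KRT7, COL7A1 and SYNPO, an actin-binding protein of podocytes, at 2.96 ± 0.07. Most of those belong to the matrix, protease and keratin groups described later. SERPINE2 rests on few reads, with EV levels of 11.4 and 109.

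The 15 lowest responses were led by IGFBP5 (chromosome 2, 216672105 to 216695549), a binding protein of insulin-like growth factors. It stood at 3765 without and 505 with TGF-beta, a response of -2.90 ± 0.07 or a 7.46-fold lower level. ARHGAP22, which turns off Rac, went from 261 to 51.1, a response of -2.35 ± 0.16. DKK1 (chromosome 10, 52314281 to 52317657), a secreted Wnt antagonist, went from 4839 to 1018, a response of -2.25 ± 0.07. Surface and secreted proteins made up much of this end. They were CPA4, a carboxypeptidase, at -2.03 ± 0.10, the dipeptidyl peptidase gene DPP4 at -2.02 ± 0.14, the sphingosine 1-phosphate receptor gene S1PR1 at -2.02 ± 0.11, and ADAMTS1, a protease that cleaves versican, at -1.93 ± 0.09. NPPB, the precursor of B-type natriuretic peptide, was -1.80 ± 0.07 and the efflux transporter gene ABCG2 -1.77 ± 0.14. SDPR (now CAVIN2), a protein of caveolae, RBM47, ITGB8, TM4SF1, DUSP4 and FOS completed the 15, with responses from -2.04 to -1.65. SERPINB2 had a lower value, -3.63 ± 0.45, but EV levels of only 44.0 and 3.55, and so falls outside the rule for the 15, which asks for a level of at least 100 in 1 condition.

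Genes known as direct or early products of TGF-beta and SMAD signaling were higher as a group. The list was drawn up with earlier results of these data known, so its counts are descriptions. Of 48 listed, 45 were in the tables and 32 reached the minimum, which a gene induced from a low level can miss. Of those 32, 19 were called higher and 0 lower, against 2.32% and 1.13% of all genes, and the median response was 1.56 beside 0 over all genes. The same shares are the background for the counts of every list that follows. Every one of the 32 was above 0, the lowest being BAMBI at 0.01 and THBS1 at 0.04, and scaled by the sum of levels these lay below 0. The LIM-domain gene LMCD1 was 2.63 ± 0.09 higher and the proapoptotic gene BMF 2.39 ± 0.11 higher. CDKN2B, the inhibitor of cyclin-dependent kinases that mediates arrest by TGF-beta in epithelial cells, was 1.75 ± 0.06 higher. CDKN1A, an inhibitor of these kinases from another family, stayed under 2-fold at 0.83 ± 0.08, as did CTGF, now CCN2, at 0.66 ± 0.06.

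Feedback inhibitors gave the calls among SMAD genes. Of 17 SMAD and corepressor genes, 3 were called higher and 0 lower, with a median of 0.48. PMEPA1, which keeps receptor-activated SMADs from the receptor, was at 175 without and 1300 with TGF-beta, a response of 2.89 ± 0.11. SKIL, the corepressor SnoN, went from 764 to 4591, a response of 2.59 ± 0.09. SMAD7 went from 327 to 998, a response of 1.61 ± 0.10. All 3 encode inhibitors of the pathway. The transducers themselves moved little: SMAD2 was -0.06 ± 0.07, SMAD4 0.10 ± 0.07, and SMAD3 -0.53 ± 0.07, from 1833 to 1272. TGIF1, another corepressor, was 0.70 ± 0.09.

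Promoter sequence was available for some of these genes, and 5 are shown to set the members with the SMAD core motif beside members without it. The motif searched was CAGAC on either strand (GTCTG on the other), in the 250 bases before the start of each gene in RefSeq, GRCh38.p14. The 5 were chosen after their sequences had been seen. Capitals mark the motif, and each sequence is given 5′ to 3′ on the strand of the gene.
SKIL: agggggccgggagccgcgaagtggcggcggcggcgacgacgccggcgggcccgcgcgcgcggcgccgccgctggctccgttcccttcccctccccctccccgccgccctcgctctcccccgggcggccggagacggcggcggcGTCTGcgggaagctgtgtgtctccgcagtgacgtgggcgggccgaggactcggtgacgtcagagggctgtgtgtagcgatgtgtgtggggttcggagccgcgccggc
BHLHE40: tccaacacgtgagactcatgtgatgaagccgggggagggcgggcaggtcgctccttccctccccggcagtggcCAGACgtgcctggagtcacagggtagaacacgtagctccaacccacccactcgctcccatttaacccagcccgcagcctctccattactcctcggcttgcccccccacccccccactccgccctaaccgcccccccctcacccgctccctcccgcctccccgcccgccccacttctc
COL7A1: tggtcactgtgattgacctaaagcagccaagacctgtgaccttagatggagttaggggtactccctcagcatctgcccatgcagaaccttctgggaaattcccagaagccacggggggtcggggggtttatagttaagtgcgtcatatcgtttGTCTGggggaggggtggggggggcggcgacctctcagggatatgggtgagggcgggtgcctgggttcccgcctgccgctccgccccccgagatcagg
TGFBI: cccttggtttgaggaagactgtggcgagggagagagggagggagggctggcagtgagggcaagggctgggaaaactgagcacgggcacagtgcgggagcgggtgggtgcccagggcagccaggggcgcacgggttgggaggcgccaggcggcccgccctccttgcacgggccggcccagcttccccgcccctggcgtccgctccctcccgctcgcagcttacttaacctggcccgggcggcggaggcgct
ID2: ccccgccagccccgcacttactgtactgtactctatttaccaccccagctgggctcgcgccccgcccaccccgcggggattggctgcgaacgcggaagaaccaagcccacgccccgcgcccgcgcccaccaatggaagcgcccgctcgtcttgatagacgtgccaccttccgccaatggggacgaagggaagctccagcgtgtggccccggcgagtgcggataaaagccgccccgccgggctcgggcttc
The windows are chr3:170357465-170357714 on the plus strand for SKIL, chr3:4979187-4979436 on the plus strand for BHLHE40 and chr3:48595330-48595579 on the minus strand for COL7A1. Those of TGFBI and ID2 are chr5:136028738-136028987 and chr2:8681806-8682055, both on the plus strand. The motif begins 107 bases before the start in SKIL, 177 in BHLHE40 and 97 in COL7A1, and TGFBI and ID2 hold none in this window. Over all genes with a window, 42.77% of 27305 hold the motif in at least 1 window, as do 44.09% of the 7797 measured genes with a window. The share was 49.13% of 173 higher genes and 45.98% of 87 lower genes. Of the 35116 windows, 38% hold it. The palindrome GTCTAGAC was also searched and was in the windows of 0 of the 173 and 0 of the 87, beside 0.19% of all measured genes. The AP-1 motif TGACTCA was in 4.62% and 5.75%, beside 3.72% of all measured genes. GGCGCC, which SMADs can also bind, was in 40.5% and 25.3%, beside 33.4%. The printed windows of TGFBI and SKIL hold GGCGCC, which is not capitalized there. A match describes the sequence and is not a site.

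Among ligands and latent binding proteins, 3 of 7 measured genes were called higher and 0 lower. TGFB1 (chromosome 19), the first TGF-beta ligand, was at 459 without and 1896 with TGF-beta, a response of 2.05 ± 0.19. LTBP2 and LTBP3, of the family that anchors latent TGF-beta to matrix microfibrils, were 3.25 ± 0.08 and 2.01 ± 0.12 higher. TGFB2 differed in direction, at 3797 without and 2957 with TGF-beta, a response of -0.36 ± 0.06. Thus 1 ligand gene was over 4-fold higher while the other measured TGF-beta ligand was slightly lower. Of 11 receptors and antagonists, 2 were called higher and 0 lower, both of them receptors of the BMP branch: BMPR2 at 1.20 ± 0.08 and ACVR1 at 1.08 ± 0.11. The TGF-beta receptors differed less, TGFBR1 at 0.14 ± 0.10 and TGFBR2 at -0.22 ± 0.09. FSTL1, a secreted follistatin-like protein, was -0.99 ± 0.06, just short of the 2-fold line, and passed it when levels were scaled by their sum.

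BMP response genes had the lowest median of the 32 lists with a measured gene, -0.98 over 9 genes, with 4 called lower and 2 higher. The ID genes encode inhibitors of basic helix-loop-helix factors. ID2 was at 510 without and 170 with TGF-beta, a response of -1.58 ± 0.13. ID3 went from 466 to 166, a response of -1.49 ± 0.23, and ID4 from 457 to 231, a response of -0.98 ± 0.11. ID1 was nearer to the median gene at -0.32 ± 0.15. BMP4, a ligand, was -1.49 ± 0.10 and GATA2 -1.03 ± 0.18. The 2 higher members were SMAD7, which is in the SMAD list too, and the ligand gene BMP6 at 1.10 ± 0.12.

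Matrix genes were higher in several classes. Of 14 collagen genes, 6 were called higher and 0 lower, with a median of 0.81. COL1A1 (chromosome 17, 50184101 to 50201631), a chain of type I collagen, was at 15948 without and 118682 with TGF-beta, a response of 2.90 ± 0.08. COL16A1 was 3.23 ± 0.11 and COL7A1, the collagen of anchoring fibrils, 3.05 ± 0.13. The basement membrane chains COL4A1 and COL4A2, which share a promoter, were 1.54 ± 0.05 and 1.13 ± 0.07, and COL5A1 was 1.27 ± 0.08. Other fibrillar chains were higher by less than 2-fold, COL3A1 at 0.58 ± 0.05 and COL5A2 at 0.72 ± 0.06, while COL12A1 was -0.48 ± 0.07. Of the 14, 10 lay above 0 and 4 below.

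Among 21 matrix glycoproteins and proteoglycans, 2 were called higher and 0 lower, with a median of 0.18. Fibronectin, FN1, went from 89111 to 249010, a response of 1.48 ± 0.06, and fibrillin, FBN1, was 1.29 ± 0.07. LUM, the proteoglycan lumican, was -0.73 ± 0.07. Enzymes that modify and crosslink matrix had 3 of 13 called higher and 0 lower: TGM2 at 3.27 ± 0.10, the lysyl oxidase gene LOX at 1.90 ± 0.07 and LOXL4 at 1.15 ± 0.14. LOX went from 695 to 2592 normalized reads.

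Proteases and their inhibitors divided. Of 16, 6 were called higher and 2 lower. Of the 8 called, HTRA1 and SERPINB2 had EV levels under 100 in both conditions and entered the selection through the C134W cells. The gelatinase gene MMP2 (chromosome 16) was at 1394 without and 5198 with TGF-beta, a response of 1.90 ± 0.07, and MMP14, which activates it, was 1.05 ± 0.08. The tissue plasminogen activator gene PLAT was 1.21 ± 0.09 and the urokinase gene PLAU 0.54 ± 0.07. On the inhibitor side SERPINE2 was higher and SERPINB2 lower. HTRA1, a serine protease gene called higher, had EV levels of 6.05 and 19.3 and a response of 1.68 ± 0.39, which was 0.73 with the fold changes as deposited. The response of SERPINE2, at 3.26 ± 0.27, was 2.61 with the fold changes as deposited.

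Integrins, the receptors for matrix, had 6 of 12 called higher and 1 lower. ITGB3 was at 190 without and 597 with TGF-beta, a response of 1.65 ± 0.10. ITGB5 was 1.49 ± 0.08 and ITGAV, which pairs with both, 1.19 ± 0.08. The collagen-binding chains ITGA1 and ITGA2 were 1.15 ± 0.09 and 1.03 ± 0.11, and the fibronectin receptor chain ITGA5 1.12 ± 0.07. ITGB8, another partner of ITGAV, went the other way, from 439 to 136, a response of -1.69 ± 0.12. ITGA6 was -0.87 ± 0.09. ITGA2 fell short of the line when levels were scaled by their sum.

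Of 21 contractile and actin-binding genes, 3 were called higher and 0 lower, beside 2.32% and 1.13% of all genes. The median was 0.44, and 19 lay above 0, the others being ACTB at -0.15 ± 0.06 and the myosin gene MYH10 at -0.33 ± 0.06. ACTA2, smooth muscle actin, was at 125 without and 340 with TGF-beta, a response of 1.45 ± 0.15. TPM1, a tropomyosin, was 1.23 ± 0.05 and the myosin light chain kinase gene MYLK 1.13 ± 0.07. TAGLN and CNN1 were below the line at 0.64 ± 0.07 and 0.53 ± 0.07.

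Regulators of the epithelial-mesenchymal transition, a change of cell state for which TGF-beta is known, showed no call. Of 15 listed, 7 were measured, with a median of 0.31, and the mesenchymal cadherin gene CDH2 was 0.86 ± 0.06 and vimentin, VIM, 0.78 ± 0.05. ZEB1 was 0.55 ± 0.11 and ZEB2 0.05 ± 0.09. SNAI1, SNAI2, TWIST1 and TWIST2 did not reach the minimum. Epithelial genes had 2 of 14 called higher and 0 lower, and 6 lay above 0 and 8 below. The desmosome gene DSP, with EV levels of 50.5 and 46.3, was among the 14 only through the C134W cells, so no median is given. The 2 were keratins, KRT7 from 126 to 1068, a response of 3.08 ± 0.13, and KRT80 from 2706 to 7911, a response of 1.55 ± 0.06. KRT19 was -0.68 ± 0.08 and KRT8 and KRT18 stayed at 0.13 and 0.11, so keratin genes differed among themselves.

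Targets of YAP and TEAD, the coactivator and DNA-binding partner of the Hippo pathway, had 1 of 24 called higher, 2 lower and a median of -0.35. Over all genes 2.32% were called higher and 1.13% lower, so the higher count is near that share. IGFBP3 was 1.08 ± 0.08, and FJX1 and GADD45A were -1.58 ± 0.12 and -1.08 ± 0.10. CYR61 (now CCN1) and CTGF, which are classic targets of YAP, were at -0.73 ± 0.06 and 0.66 ± 0.06. Scaled by the sum of levels, 4 of the list were lower, AMOTL2 and AXL being the others near the line at -0.99 and -0.93.

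Granulosa identity genes were mostly too low to measure, with 9 of 26 in the selection, of which 1 was called lower, 3 lay above 0 and 6 below. FOXL2 and the follistatin gene FST were among the 9 only through the C134W cells, FST having EV levels of 38.1 and 32.1, so no median is given. KITLG (chromosome 12, 88492793 to 88580471), the ligand that granulosa cells present to the oocyte receptor KIT, was at 751 without and 315 with TGF-beta, a response of -1.25 ± 0.11. GATA4, a granulosa transcription factor, was -0.68 ± 0.08 and the progesterone receptor gene PGR -0.77 ± 0.13. BMPR1B, a receptor for bone morphogenetic proteins, was the highest of the list at 0.42 ± 0.09. Steroid synthesis genes had 0 of 11 called in either direction and a median of -0.31, with 9 of 11 below 0. CYP19A1, STAR and CYP11A1 did not reach the minimum. Of the theca and stroma list, PDGFRB, a receptor for PDGFB, went from 587 to 2048, a response of 1.80 ± 0.08, and NR2F2 was -0.73 ± 0.06. Of the Sertoli list, SOX9 was 0.28 and the claudin gene CLDN11 -0.92, and 0 of 3 were called. Endothelial and immune markers had 0 members that reached the minimum.

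ATF4 is the transcription factor of the amino acid response, which supplies amino acids under stress. Of 29 ATF4 and endoplasmic reticulum stress genes, 8 were called higher and 0 lower, with a median of 0.71 and 25 above 0. CHAC1, which degrades glutathione, was at 85.3 without and 618 with TGF-beta, a response of 2.86 ± 0.15. DDIT4 and SESN2, both brakes on mTORC1, were 3.52 ± 0.12 and 1.93 ± 0.13. PHGDH, which opens serine synthesis, was 1.47 ± 0.07, the asparagine synthetase gene ASNS 1.30 ± 0.07 and ATF4 itself 0.74 ± 0.06. Of the chaperone genes of the list, HSPA5 was 0.23 ± 0.05, HSP90B1 0.22 ± 0.07 and CALR -0.13 ± 0.06, with none called.

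Cholesterol synthesis genes lay to the other side by less than 2-fold. Of 27, 0 were called, 24 were below 0 and the median was -0.46. NSDHL, a sterol dehydrogenase, was -0.72 ± 0.09, while the desaturase gene SC5D was 0.58 ± 0.08. Hypoxia and glycolysis genes had 3 of 23 called higher and 1 lower, beside 2.32% and 1.13% of all genes, with a median of -0.29. VEGFA, the vascular growth factor, went from 168 to 692, a response of 2.04 ± 0.11, and the glucose transporter gene SLC2A1 was 1.04 ± 0.08. The hexokinase gene HK2 was -1.07 ± 0.12 and the glycolytic enzyme genes ENO1 and PGK1 -0.56 and -0.46. Scaled by the sum of levels, 1 of this list was higher and 2 lower.

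Proliferation genes gave no call. Of 32 G2/M genes and 28 S phase genes, 0 were called in either direction, with medians of -0.11 and -0.14, and the S phase subunit of ribonucleotide reductase, RRM2, was lowest at -0.56 ± 0.06. Of 24 p53 targets, 2 were called higher, SESN2 and PLK3, and 2 lower, PLK2 at -1.36 ± 0.06 and GADD45A. Over all genes 2.32% were called higher and 1.13% lower. Type I interferon genes had 0 of 11 called, with ISG15, at EV levels of 89.9 and 79.2, among the 11 only through the C134W cells. Of 6 measured inflammatory genes, the chemokine gene CCL2 was called higher at 1.10 ± 0.12. The 70 ribosomal protein genes had a median of 0.03, which fell to the other side of 0 when scaled by the sum of levels, and ranged from -0.31 to 0.18. Reference genes had 0 of 14 called, though the transferrin receptor gene TFRC was at -0.91 ± 0.07 and GAPDH at -0.37 ± 0.06.

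AP-1 subunits separated. Of 17 immediate early genes, 2 were called higher and 2 lower. Besides JUNB, the higher gene was IER3 at 1.61 ± 0.08. FOS went from 158 to 50.4, a response of -1.65 ± 0.17, and FOSL1 was -1.16 ± 0.15, while JUN and JUND were -0.47 ± 0.10 and -0.40 ± 0.12. Genes fed by the ERK kinases also went both ways, with 4 of 15 called higher and 2 lower. The transcription factors ETV5 and ETV4 were 1.90 ± 0.14 and 1.41 ± 0.15 and the feedback inhibitor gene SPRY2 1.01 ± 0.10. DUSP4, a phosphatase that inactivates ERK, went from 801 to 252, a response of -1.67 ± 0.09.

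In the Notch list 1 of 6 measured genes was called higher, the receptor gene NOTCH3 at 1.06 ± 0.11, and scaled by the sum of levels it was not. The shares of all genes, for this list and the Wnt list, were 2.32% higher and 1.13% lower. HES1, a Notch target, was 0.72 ± 0.11. In the Wnt list 2 of 6 were called lower, DKK1 and the ligand gene WNT2B at -1.59 ± 0.13, and 1 higher, the receptor gene FZD2, which lay on the 2-fold line at 1.00 ± 0.11. The Wnt median of -0.02 took the other sign when the median gene was taken from genes with means of at least 1000.

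The KGN table shares no library with the EV tables and was tested by its authors within 1 table. It behaved as 11 libraries, 5 with TGF-beta and 6 without, where the labels list 5 and 4. KGN cells carry C134W and derive from a tumor, so the line, the genotype and the experiment all differ from EV together and cannot be told apart. Of 15719 genes with an adjusted p in the authors' deposited table, 19.8% were higher and 20% lower with TGF-beta at an adjusted p under 0.05 (Wald test with Benjamini-Hochberg adjustment). Among the 9372 of these that were measured in EV cells, 26.2% were higher and 22.4% lower in the authors' deposited table.

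Genes called in EV cells met all outcomes in KGN. Of 209 genes called higher in EV that had a KGN test, 111 (53.11%) were higher in the authors' deposited table, beside the background of 26.2%, 40 (19.14%) were lower and 58 did not pass. Of 104 genes called lower in EV that had a KGN test, 58 (55.77%) were lower in the authors' deposited table, beside the background of 22.4%. Another 13 (12.5%) were higher in the authors' deposited table and 33 did not pass. The shared genes were 4.53% of the 2453 measured genes higher in KGN and 2.76% of the 2103 lower. Those KGN counts take a fold change of any size, while the EV calls ask for 2-fold. Asking also for a deposited fold change of at least 1 on the log2 scale left 41 shared higher and 35 shared lower genes. By that rule, 173 measured genes were higher and 271 lower in the authors' deposited table. Across 9427 genes Pearson's r between the EV response and the deposited KGN fold change was 0.20 and Spearman's rho 0.09, given as a description, since genes are not independent replicates.

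**Figure D1:**
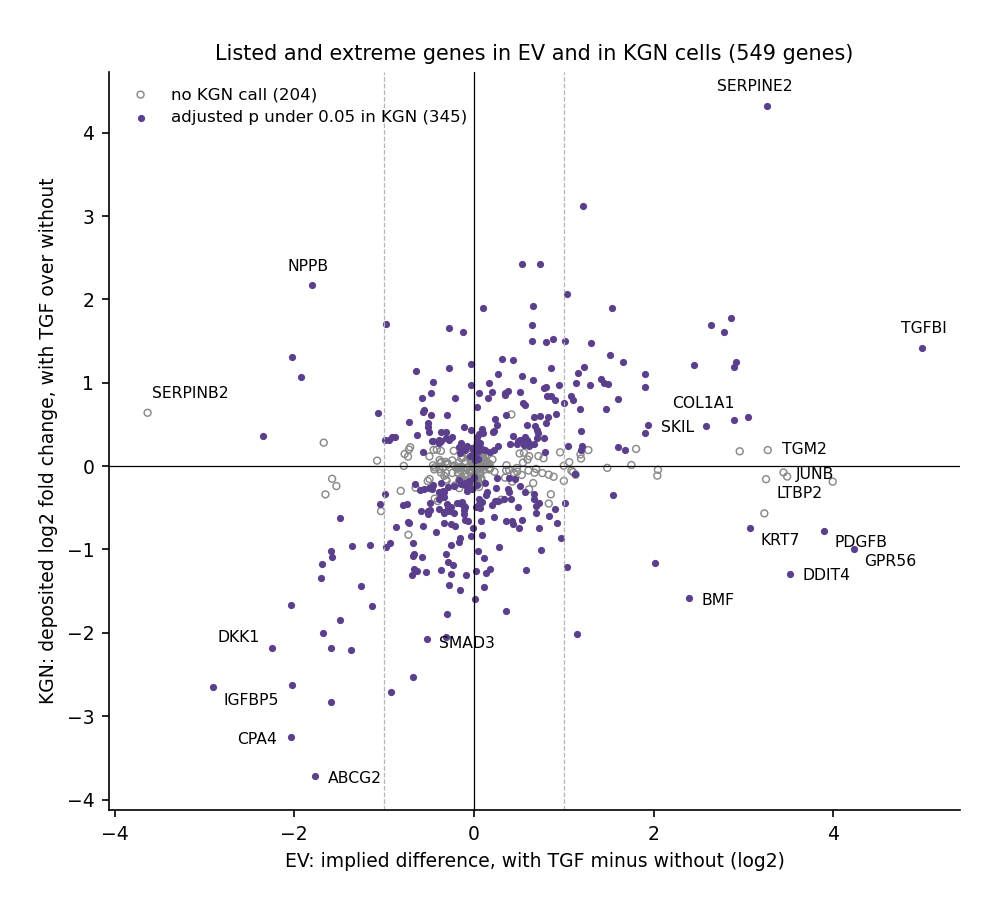
EV response (horizontal, log2) against the fold change of KGN cells in the authors' deposited table (vertical, log2), for the 549 genes that are in a list or among the 15 highest or lowest in EV; filled points passed in KGN at an adjusted p under 0.05 (345 genes) and open ones did not pass or have none (204). Dashed lines mark 2-fold in EV; SERPINE2 and TGFBI lie at the upper right, ABCG2 and CPA4 at the lower left, and GPR56 and DDIT4 at the lower right.

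The extremes of the EV response were found on both sides of 0 in KGN. Of the 15 highest EV genes, 14 had a KGN test, 4 were higher and 4 lower in the authors' deposited table. Over the 9372 measured genes with a KGN test, 26.2% were higher and 22.4% lower. The counts of the highest genes are thus near the background. The 4 higher were SERPINE2 at 4.33 ± 0.13, TGFBI at 1.42 ± 0.06, BHLHE40 at 1.25 ± 0.10 and COL7A1 at 0.59 ± 0.16 in the authors' deposited table. GPR56 fell by 1.00 ± 0.16 in the authors' deposited table. DDIT4 was -1.29 ± 0.29, PDGFB -0.77 ± 0.28 and KRT7 -0.75 ± 0.13 in the authors' deposited table. JUNB, at -0.08 ± 0.07 there, and TGM2, at 0.19 ± 0.18, did not pass in the authors' deposited table. Of the 15 lowest EV genes, 9 were lower in the authors' deposited table and 4 higher. ABCG2 at -3.72 ± 0.22, CPA4 at -3.25 ± 0.24, IGFBP5 at -2.65 ± 0.08, DPP4 at -2.63 ± 0.15 and DKK1 at -2.18 ± 0.21 were among the lower in the authors' deposited table. NPPB at 2.17 ± 0.24, S1PR1 at 1.30 ± 0.11 and ADAMTS1 at 1.08 ± 0.22 went the other way in the authors' deposited table. Some of the genes named had few reads in KGN. Means of normalized reads there were 22.7 for PDGFB, 47.6 for COL7A1, 48.1 for NPPB, 51.6 for GPR56 and 86.1 for KRT7. Those of DDIT4, S1PR1 and ADAMTS1 were 1068.9, 603.3 and 915.5.

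By list, the TGF-beta and SMAD response genes had 19 of 31 tested higher and 4 lower in the authors' deposited table. The background for this and the next lists was 26.2% of measured genes higher and 22.4% lower in the authors' deposited table. CTGF, at 0.66 ± 0.06 in EV, was 1.92 ± 0.06 in the authors' deposited table, and TAGLN, at 0.64 in EV, was 1.69 ± 0.13. BMF and LTBP3 were called higher in EV and were lower in the authors' deposited table, at -1.59 ± 0.27 and -1.16 ± 0.15. Their means in KGN were 40.03 and 791.8 normalized reads. Among SMAD genes, SMAD7 was 0.23 ± 0.07, SKIL 0.48 ± 0.07 and SMAD3 -2.08 ± 0.06 in the authors' deposited table. ID2 was -1.08 ± 0.18 and ID3 -0.62 ± 0.13, while ID4 was 1.71 ± 0.20 in the authors' deposited table, opposite to its EV value of -0.98. ID4 had a mean of only 43.2 normalized reads in KGN. Of 14 collagens, 5 were higher and 7 lower in the authors' deposited table. COL1A1 was 0.55 ± 0.06 and COL4A1 1.90 ± 0.05, while COL3A1 was -1.25 ± 0.07 in the authors' deposited table. ATF4 and stress genes had 25 of 29 higher in the authors' deposited table, with ASNS at 1.48 ± 0.08. Cholesterol synthesis genes had 17 of 27 higher and 4 lower in the authors' deposited table, where 24 of 27 were below 0 in EV. Differences between the lines were not tested.

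The same response was worked out for C134W cells from the same pair of tables and for WT cells from the other pair. In C134W cells 198 of the 9436 genes were higher by at least 1 (2.1%) and 174 lower (1.84%). In WT cells, over 9194 shared genes, 126 were higher (1.37%) and 47 lower (0.511%). Of the 219 genes called higher in EV, 84 passed that line in C134W and 77 of the 214 measured there in WT. Their medians were 1.30 in EV, 0.77 in C134W and 0.80 in WT. Of the 107 called lower in EV, 52 passed the line in C134W and 31 of 101 in WT, with medians of -1.27, -0.98 and -0.73. Because the genes were chosen for a large EV value, the EV medians are larger by construction, and nothing is read from that order.

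The difference between the C134W and the EV response can be tested, because it equals the fold change with TGF-beta less that without, each within 1 table, and the tables share no library. The fold changes of the test are not centred on the median gene, so a difference can depart by a few hundredths from that of the centred responses. Over 17969 genes, a two-sided z test with Benjamini-Hochberg adjustment called 1077 genes higher (5.99%) and 1071 lower (5.96%) in the C134W response. Among the 9436 measured genes the counts were 943 (9.99%) and 916 (9.71%). Of the 219 genes called higher in EV, the difference passed towards a smaller response in C134W for 149 and towards a larger one for 5. Of the 107 called lower, it passed towards a smaller response for 47 and a larger one for 15. The EV values that chose these genes enter the test, so those counts are descriptions.

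In the TGF-beta and SMAD response list, itself chosen with earlier results of these data known, 24 of 32 genes had a lower response in C134W than in EV, 4 a higher one and 4 did not pass. SMAD7 was 1.61 in EV and 0.51 in C134W, a difference of -1.08 ± 0.14 (adjusted p = 3.1e-13). SKIL differed by -1.23 ± 0.13 (adjusted p = 2.6e-19) and COL1A1 by -1.46 ± 0.11 (adjusted p = 4.6e-38). PMEPA1 differed by -0.95 ± 0.16 (adjusted p = 4.4e-08). These genes were named with their EV responses in view, which enter the test, so their adjusted p-values are descriptions. The 4 with a higher response in C134W were CTGF at a difference of 0.75 ± 0.08 (adjusted p = 8.3e-20), CDKN1A at 0.65 ± 0.11 (adjusted p = 4.1e-07), TAGLN at 0.53 ± 0.09 (adjusted p = 2.8e-07) and TGIF1 at 0.47 ± 0.12 (adjusted p = 0.0015). ADAM19, SPSB1, SMURF1 and SMURF2 did not pass, with differences from -0.17 to 0.24.

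**Figure D2:**
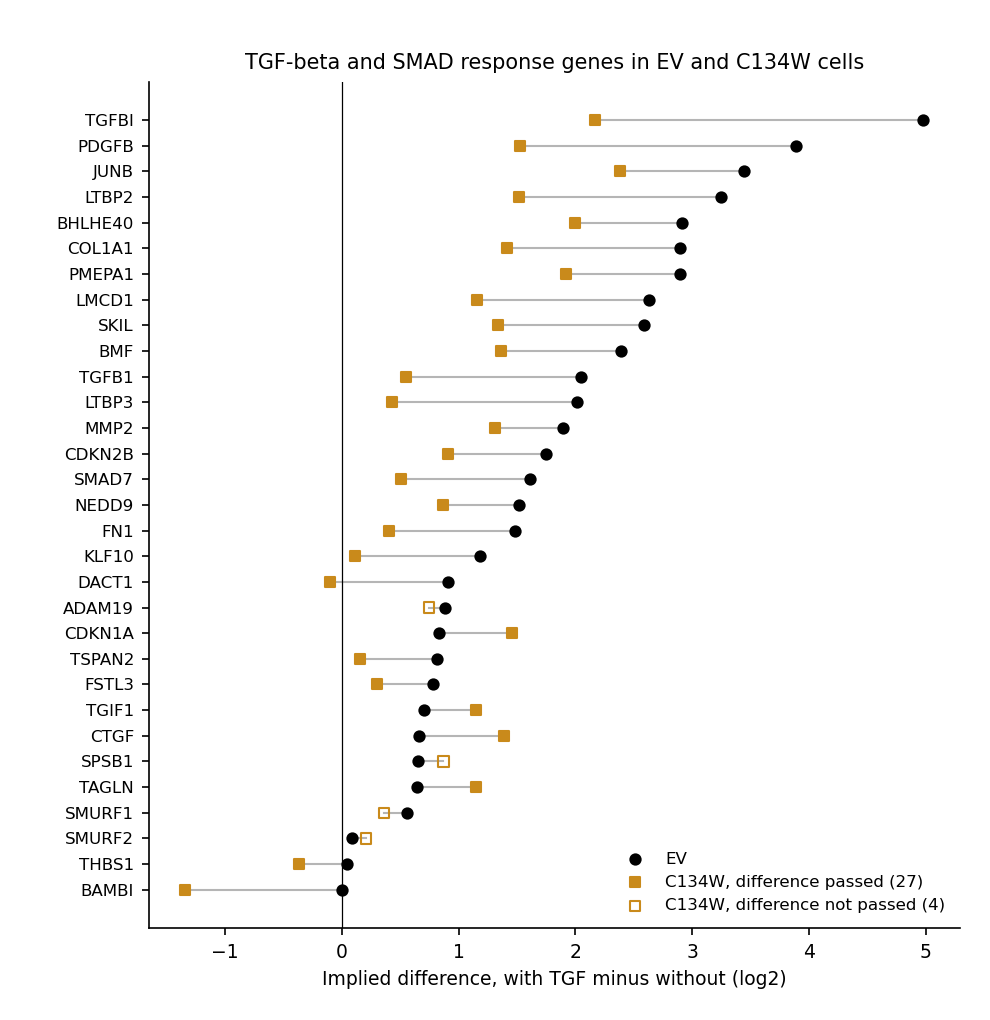
Responses of 31 of the 32 measured TGF-beta and SMAD response genes (log2 of the level with TGF over that without), in EV cells (black points) and C134W cells (squares), where filled squares mark a difference that passed the z test at an adjusted p under 0.05. The difference passed for 27 of the genes drawn; TGFBI falls from 4.98 in EV to 2.17 in C134W, and CTGF is at 0.66 in EV and 1.39 in C134W.

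Other lists differed in kind. The genes named from them were taken with their EV responses in view, and the EV response enters the test. Their adjusted p-values are therefore descriptions. Of 14 collagens, 10 had a lower response in C134W and 1 a higher one, and COL3A1, COL5A2 and COL12A1 took opposite signs in EV and C134W. COL4A5 and COL5A1 did so too, but each with a value near 0. COL4A5 was 0.11 ± 0.08 in EV and -0.31 ± 0.08 in C134W (adjusted p of the difference = 0.0061, z test). COL5A1 was 1.27 ± 0.08 in EV and -0.01 ± 0.08 in C134W (adjusted p of the difference = 4.5e-26, z test). COL3A1 was 0.58 in EV and -0.44 in C134W (adjusted p of the difference = 3.6e-43). COL5A2 was 0.72 in EV and -0.64 in C134W, a difference of -1.34 ± 0.08 (adjusted p = 1.7e-55). COL12A1, the 1 with a higher response, was -0.48 in EV and 0.89 in C134W, a difference of 1.40 ± 0.10 (adjusted p = 5.2e-44). PDGFRB, at 1.80 in EV, was -0.40 in C134W, a difference of -2.18 ± 0.12 (adjusted p = 7.4e-67). PGR also changed sign, from -0.77 in EV to 0.82 in C134W, a difference of 1.61 ± 0.18 (adjusted p = 1.8e-17). Among BMP targets ID4 was -0.98 in EV and 0.51 in C134W, a difference of 1.51 ± 0.14 (adjusted p = 4.2e-24). ID2 gave a difference of -0.20 ± 0.19 (adjusted p = 0.69) and SMAD3 one of -0.05 ± 0.09 (adjusted p = 0.90), which did not pass. Of 27 cholesterol synthesis genes 11 had a higher response in C134W and 1 a lower one, SC5D. KITLG, with a difference of -0.07 ± 0.17 (adjusted p = 0.92), did not pass, and its response was -1.35 in C134W.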

How the data were processed

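RNA was sequenced with a TruSeq RNA v2 kit, per the labels' protocols. The build hg38 and the tools DESeq2, HTSeq 0.6.1, Bowtie2 and Trimmomatic 0.36.0 are named, without their roles, in the submitters' processing notes. The authors deposited, for each of 26330 gene symbols and each of 5 comparisons, a mean of normalized reads (a signal scaled by size factors) over both groups. Beside it the authors deposited a fold change on the log2 scale with a standard error. The deposited Wald statistic is a score, the fold change over its error. The deposited p-value and its Benjamini-Hochberg adjusted p-value were used as given in KGN.

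The fold changes had been moderated by a normal prior. Its SD was taken as 2 times the largest standard error of a table, and the prior was undone. The C134W levels stand in a table against EV and another against WT, and after this step both differed by an SD of 0.0050 (log2) over 9490 genes with TGF and 0.0038 over 9356 without, against 0.0098 and 0.0153 as deposited. The form of the prior was settled after a first form, which gave larger disagreement, had been tried. The EV level is 2 times the mean over 1 plus the fold change, for 3 libraries a side. The median gene stood at 0.19 (log2) before centring. Errors of the levels assume 1 dispersion in both groups of a table.

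The difference between C134W and EV responses was a two-sided z test over 17969 genes. Members and the 33 lists were chosen with earlier results of these data known, and 3 further lists, used in the closing section, after the values were seen. Named genes are the 15 highest and 15 lowest responses with an EV level of at least 100 in a condition, the 4 largest responses of each list, and members whose role the text needs. Alternatives were deposited fold changes, other centring and minimums, and another split of errors. The computation was tested on simulated data. Versions were matplotlib 3.10.9, scipy 1.17.1, pandas 2.3.3, numpy 2.4.6 and Python 3.11.15. Coordinates and promoters are from RefSeq, GRCh38.p14. The 78 samples that are not RNA were not used here. Some genes, counted in their lists and left out of the drawing of single response genes, are not reported here by name.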

Additional observations from a re-analysis of the deposited data

Results flagged for a closer look

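The difference between the response of C134W and that of EV cells passed the z test for 1077 genes upward and 1071 downward of 17969, which is why the genes that follow are listed. Of the 15 genes highest in EV, 14 had a smaller response in C134W, on the log2 scale. GPR56 differed by -2.96, TGM2 by -2.94, KRT7 by -2.82 and TGFBI by -2.79. PDGFB differed by -2.34, RGS4 by -2.23, COL16A1 by -2.17, SYNPO by -1.99 and LTBP2 by -1.71. DDIT4 differed by -1.23, JUNB by -1.04, ASS1 by -1.01, BHLHE40 by -0.89 and COL7A1 by -0.68. SERPINE2 was the exception, with a difference that did not pass.

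Of the 15 genes lowest in EV, 8 had a response nearer to 0 or above it in C134W. ARHGAP22 differed by 3.43, DUSP4 by 2.15, S1PR1 by 1.89, FOS by 1.81, DPP4 by 1.74, IGFBP5 by 1.41, NPPB by 0.86 and ADAMTS1 by 0.34. CPA4 and ABCG2 were lower still in C134W, by -1.40 and -0.84. ARHGAP22 and DUSP4 took the opposite sign in C134W, at 1.06 ± 0.12 and 0.46 ± 0.07. FOS was close to 0 there, at 0.14 ± 0.13. The genes were picked for extreme EV values, which enter the test. Some also met the minimum in 1 condition only through the C134W cells.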

How the results depend on the processing

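Counts of genes and list medians kept their direction under the alternatives that were run, except 2 medians close to 0. The ribosomal median was -0.05 with the sum of levels, and the Wnt median was 0.02 with the median of genes of at least 1000. The counts of genes called moved by more than 1.5 times only with a minimum of 500 normalized reads, which tests fewer genes, to 94 higher and 29 lower. The overlap with KGN moved to 41 higher and 35 lower when a deposited fold change of at least 1 was also asked for, which is a narrower rule. With the sum of levels in place of the median gene every response moved by -0.08, and with the median of genes of at least 1000 by 0.04. Among 523 named genes the first of these took 15 across the 2-fold line. With fold changes as deposited, 3 crossed it, and HTRA1 and SERPINE2 moved by more than their error. No paired analysis was possible because the tables hold no values per library, and for the same reason no replicate could be left out. Low levels limit the 72 genes with an EV level under 100 in both conditions, which entered through the C134W cells. Genes well under 100 in only 1 EV condition also met the minimum of that condition through the C134W cells. PDGFB, at 35.2 in untreated EV cells, had a mean of 113 over both groups. RGS4, SERPINE2, ETV4 and ETV5 were alike, so C134W levels had a part in which genes are described.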

Other observations

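3 groups of genes, drawn up after the values were seen and given with no test, were not described before. The list of the aryl hydrocarbon receptor, a sensor of xenobiotics, holds its targets and its own gene, AHR. Of 7 listed genes 5 were measured, all below 0 with a median of -0.52, AHR being at -0.37 ± 0.08. CYP1B1, a cytochrome that hydroxylates estradiol, was at 6024 without and 1999 with TGF-beta in EV cells, a response of -1.59 ± 0.06. AHRR, the repressor of the receptor, was -1.59 ± 0.13. In the authors' deposited table for KGN, CYP1B1 was -2.83 ± 0.13 and AHRR -1.02 ± 0.06, and all 5 were lower, beside 22.4% of measured genes.

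Genes that supply proline, serine and arginine, of which collagen and other matrix proteins are made, had 2 of 10 called higher, 9 above 0 and a median of 0.54. Besides ASS1 and PHGDH, PSAT1 was 0.85 ± 0.06 and SHMT2 0.67 ± 0.06. Of 9 with a KGN test, 8 were higher in the authors' deposited table, beside 26.2% of measured genes. Among 16 semaphorins, plexins and neuropilins, which guide axons and vessels, 1 was called higher and 4 lower. NRP2, a coreceptor for semaphorins and vascular growth factors, went from 267 to 1460, a response of 2.45 ± 0.09. SEMA5A was -1.53 ± 0.07, SEMA3D -1.37 ± 0.09, SEMA3B -1.14 ± 0.13 and SEMA3A -1.05 ± 0.10. The SEMA5A response was 0.91 in C134W, a difference of 2.46 ± 0.10. SEMA5A was chosen after its EV value was seen, so no test is given for that difference.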
